A study of Mus musculus with 6 samples.

Results

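Basophils are rare granulocytes that store proteases, histamine and proteoglycan in secretory granules and release them when antigen crosslinks IgE bound to the receptor FcεRI. The genes described here are 5 of the 24532 gene IDs in the tables. They encode the granule proteases Mcpt8, Prss34, Cpa3 and Gzmb and the proteoglycan core protein serglycin (Srgn), and were chosen by name and matched through their gene IDs. Negatively charged glycosaminoglycan chains on serglycin bind positively charged proteases and hold them in the granule. In the mouse, Mcpt8 and Prss34 transcripts are widely used to mark basophils, whereas Cpa3 is shared with mast cells.

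RNA was sequenced from 3 cell populations sorted from the bone marrow of C57BL/6J mice, each with 2 libraries that the study calls biological duplicates. MAR1INT and MAR1HI cells were both negative for lineage markers, CD34 and c-Kit and positive for CD200R3, and were separated by intermediate or high staining with MAR1, an antibody to the alpha chain of FcεRI. BaP cells, a basophil precursor by label, bound MAR1 and carried CD34, and lacked c-Kit and lineage markers. All groups were thus selected on MAR1 and depleted of lineage-positive and c-Kit-positive cells, and no treatment or mutation was labelled. The animals' age, sex and number, and whether cells of several animals were pooled, are not given in the sources used here, so the p-values measure only the spread between these libraries.

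Levels are TPM (each transcript's share of the library, corrected for length and scaled to a fixed total). Implied aligned sequence was 4.75 to 5.28 gigabases per library. Between 9604 and 9705 genes reached a TPM of 1 in MAR1INT, 10710 to 11038 in MAR1HI and 10983 to 11544 in BaP. Of 12 basophil markers, all passed the filter. Their summed level was 7636 to 8528 TPM in MAR1INT, 6997 to 7792 TPM in MAR1HI and 4278 to 4531 TPM in BaP. That sum includes Cd200r3, whose protein was used to sort MAR1INT and MAR1HI and is not named in the BaP gate. Cd200r3 had 2696 and 2342 TPM in MAR1INT, 1601.5 and 1576 TPM in MAR1HI and 821 and 845 TPM in BaP. Fcer1a, whose protein MAR1 binds, had 534 and 422 TPM in MAR1INT, 1211 and 1446 TPM in MAR1HI and 776 and 892 TPM in BaP, the same order as the gates of the CD34-negative populations. In bulk samples, fewer cells of a type and less RNA per cell cannot be told apart.

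The sequences before the starts of the most abundant proteases are shown because each of these 3 genes had its lowest levels in both MAR1INT libraries. Each is the 250 bases upstream of the start in RefSeq's GRCm38.p6 annotation, read 5′ to 3′ on the gene's strand. The Mcpt8 window is chr14:56085198-56085447 on the minus strand, the Prss34 window chr17:25298144-25298393 on the plus strand and the Cpa3 window chr3:20242182-20242431 on the minus strand. Capitals mark the core letters AGATAA, bound by GATA factors, and TGTGGT, bound by RUNX factors (ACCACA where the match is on the other strand); both strands were searched and no such matches overlapped in these windows.
Mcpt8: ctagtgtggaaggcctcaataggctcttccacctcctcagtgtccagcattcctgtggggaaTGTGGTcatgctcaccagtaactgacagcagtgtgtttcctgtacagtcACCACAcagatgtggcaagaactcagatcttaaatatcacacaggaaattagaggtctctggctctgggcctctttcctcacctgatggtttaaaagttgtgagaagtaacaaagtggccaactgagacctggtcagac
Prss34: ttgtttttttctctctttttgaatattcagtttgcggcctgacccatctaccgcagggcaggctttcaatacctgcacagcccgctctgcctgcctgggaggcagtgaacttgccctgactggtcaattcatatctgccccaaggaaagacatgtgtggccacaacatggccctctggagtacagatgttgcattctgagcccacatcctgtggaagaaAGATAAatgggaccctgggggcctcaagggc
Cpa3: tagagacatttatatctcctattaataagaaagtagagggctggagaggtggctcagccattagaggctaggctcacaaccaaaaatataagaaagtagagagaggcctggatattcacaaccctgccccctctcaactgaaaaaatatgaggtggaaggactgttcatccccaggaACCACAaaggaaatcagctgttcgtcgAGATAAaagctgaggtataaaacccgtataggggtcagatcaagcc
With -1 as the base next to the start, AGATAA began at -31 in Prss34 and at -46 in Cpa3. It was found before 2 of the 5 genes, against 9.99% of all 32851 promoter windows. TGTGGT was found before Mcpt8, Cpa3, Gzmb and Srgn, against 14.05% of all windows. In Mcpt8 its matches began at -188 and -139, and in Cpa3 at -73. Cpa3 also held the TATA box letters TATAAA at -31, and a match on the other strand (TTTATA) at -242. A match at any position on either strand was found in 12.4% of windows. In all, 7 motifs were searched. The E-box letters CANNTG were in 5 of the 5 windows and in 66.2% of all, the ETS letters GAGGAA in 1 (Mcpt8) and 23.3%, the C/EBP letters TTNNGNAA in 1 (Srgn) and 36.9%, and the STAT letters TTCNNNGAA in 0 and 7.02%. A letter match is a description of the sequence and says nothing of binding in these cells.

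The protease transcripts were lower in MAR1INT than in either of the other populations, and Srgn moved least. Mcpt8 fell to 43.6% of its MAR1HI mean, Cpa3 to 42.0% and Gzmb to 9.76%, while Prss34 stood at 60.8% and Srgn at 83.1% without passing the test. Against BaP, all 4 proteases fell. Between MAR1HI and BaP none of the 5 genes passed the test. A gene is called higher or lower where limma's two-sided test on log2(TPM + 1), adjusted by Benjamini-Hochberg over the 11337 genes that reached 1 TPM in 2 or more libraries, gives an adjusted p under 0.05. All 5 genes passed that filter.

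Mcpt8 (gene 17231, mm10 chr14:56082164-56085197, minus strand) encodes a serine protease of the chymase and granzyme cluster and is the gene behind several basophil reporter mice. It had 2745 and 2161 TPM in MAR1INT, 6416 and 4839 TPM in MAR1HI and 4978 and 6412 TPM in BaP. Both MAR1INT libraries lay below all others, and the MAR1HI and BaP libraries overlapped. The means were 2453 ± 413 TPM in MAR1INT, 5627 ± 1115 TPM in MAR1HI and 5695 ± 1014 TPM in BaP (SD, n = 2 each). Mcpt8 was lower in MAR1INT than in MAR1HI by a log2 change of -1.19 (SE 0.22, limma adjusted p = 0.00672) and lower than in BaP by -1.21 (SE 0.22, limma adjusted p = 0.00324). Between MAR1HI and BaP the change was -0.02 with a 95% interval of -0.51 to 0.47, and its sign turned without MAR1HI replicate 2 (0.18), without BaP replicate 2 (0.16) and under quantile normalization (0.23). The microRNA gene Mir6949 lies inside Mcpt8 on the same strand, so reads of the pair cannot be fully told apart.

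Prss34 (gene 328780, mm10 chr17:25298394-25300161, plus strand) encodes a tryptase-like serine protease that mouse basophils secrete. It was the most abundant of the 5 transcripts in every library, with 4615 and 3588 TPM in MAR1INT, 8133 and 5371 TPM in MAR1HI and 6085 and 8679 TPM in BaP. In the order of all genes by TPM it stood 24th and 45th in MAR1INT, 8th and 5th in MAR1HI and 10th and 6th in BaP. Both MAR1INT libraries were again the lowest, but the duplicates of MAR1HI and of BaP lay far apart. The group means were 4102 ± 726 TPM in MAR1INT, 6752 ± 1953 TPM in MAR1HI and 7382 ± 1834 TPM in BaP (SD, n = 2 each). Prss34 fell against BaP (log2 change -0.84, SE 0.26, limma adjusted p = 0.0343) and did not pass against MAR1HI (-0.70, SE 0.26, limma adjusted p = 0.0969). The call against BaP was lost without either BaP library (limma adjusted p = 0.0556 without replicate 1 and 0.242 without replicate 2) and without either MAR1HI library (0.0601 and 0.0614). It was also lost with no filter (0.19), a pseudocount of 0.1 (0.0588), the FPKM scale (0.0761), median-of-ratios scaling (0.237) and only the groups compared (0.0606). Without MAR1INT replicate 1 the change against MAR1HI was -0.88 with a limma adjusted p of 0.00663, and under quantile normalization -0.87 with 0.0465. It was -0.40 without MAR1HI replicate 1 (limma adjusted p = 0.413) and -0.41 under median-of-ratios scaling (limma adjusted p = 0.61).

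Gzmb (gene 14939, mm10 chr14:56258836-56262334, minus strand) encodes granzyme B, a serine protease that cleaves after aspartate and is best known from the granules of cytotoxic lymphocytes. It was a minor transcript, with 0.830 and 1.08 TPM in MAR1INT, 7.87 and 11.7 TPM in MAR1HI and 7.64 and 3.49 TPM in BaP. The groups did not overlap: both MAR1HI libraries were the highest, though by a narrow margin over BaP replicate 1, and both MAR1INT libraries the lowest. The means were 0.956 ± 0.177 TPM in MAR1INT, 9.79 ± 2.71 TPM in MAR1HI and 5.57 ± 2.94 TPM in BaP (SD, n = 2 each). Gzmb fell in MAR1INT by -2.44 against MAR1HI (SE 0.48, limma adjusted p = 0.00869) and by -1.67 against BaP (SE 0.48, limma adjusted p = 0.0252). The call against BaP was lost without BaP replicate 1 (-1.20, limma adjusted p = 0.218), without MAR1HI replicate 1 (0.053) and without MAR1HI replicate 2 (0.0529). It was also lost with no filter (0.103), with only the groups compared (0.0519) and under quantile normalization (-0.75, limma adjusted p = 0.223). Of 16 T and NK cell markers, 15 were in the tables and 5 passed the filter. Their summed level was 37.5 to 51.5 TPM in MAR1INT, 198 to 202 TPM in MAR1HI and 385 to 399 TPM in BaP, mostly Nkg7, and Cd3g and Klre1 were at 0 in all libraries. Of those 5, 4 fell in MAR1INT against BaP and 1 against MAR1HI, where 20.4% and 14.5% of all tested genes fell. Cd4, 1 of the 4, passed the filter through BaP alone, which favoured its fall. The part of these markers in the Gzmb result was not tested.

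Cpa3 (gene 12873, mm10 chr3:20215616-20242181, minus strand) encodes carboxypeptidase A3, a zinc metalloprotease that removes amino acids from the carboxyl end of peptides and whose storage in mast cell granules depends on serglycin. It had 1448 and 981 TPM in MAR1INT, 2760.0 and 3017 TPM in MAR1HI and 3284 and 3835 TPM in BaP. The 3 groups did not overlap and stood in the order BaP, MAR1HI, MAR1INT from high to low. The means were 1214 ± 330.3 TPM in MAR1INT, 2889 ± 182 TPM in MAR1HI and 3559 ± 389.6 TPM in BaP (SD, n = 2 each). Cpa3 was lower in MAR1INT by -1.28 against MAR1HI (SE 0.22, limma adjusted p = 0.00449) and by -1.57 against BaP (SE 0.22, limma adjusted p = 0.000806). The neighbouring ranks MAR1HI and BaP did not differ beyond their spread by that test (-0.30, 95% interval -0.78 to 0.19). The microRNA gene Mir7007 lies inside Cpa3 on the same strand.

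Srgn (gene 19073, mm10 chr10:62494428-62507755, minus strand) had 691 and 671.5 TPM in MAR1INT, 811 and 828 TPM in MAR1HI and 876 and 847 TPM in BaP. Its 3 groups did not overlap, in the order BaP, MAR1HI, MAR1INT from high to low, and its duplicates were the closest of the 5 genes. The means were 681 ± 13.6 TPM in MAR1INT, 819.6 ± 12.4 TPM in MAR1HI and 861.5 ± 20.2 TPM in BaP (SD, n = 2 each). No change passed the test: -0.27 against MAR1HI (95% interval -0.65 to 0.11, limma adjusted p = 0.322), -0.34 against BaP (-0.72 to 0.04, limma adjusted p = 0.157) and, for MAR1HI minus BaP, -0.07 (-0.45 to 0.31, limma adjusted p = 0.858). The change of Srgn against BaP was called on the FPKM scale (-0.58, limma adjusted p = 0.0376) and after quantile normalization (-0.38, limma adjusted p = 0.0487), and its sign against MAR1HI turned under median-of-ratios scaling (0.03).

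**Figure D1:**
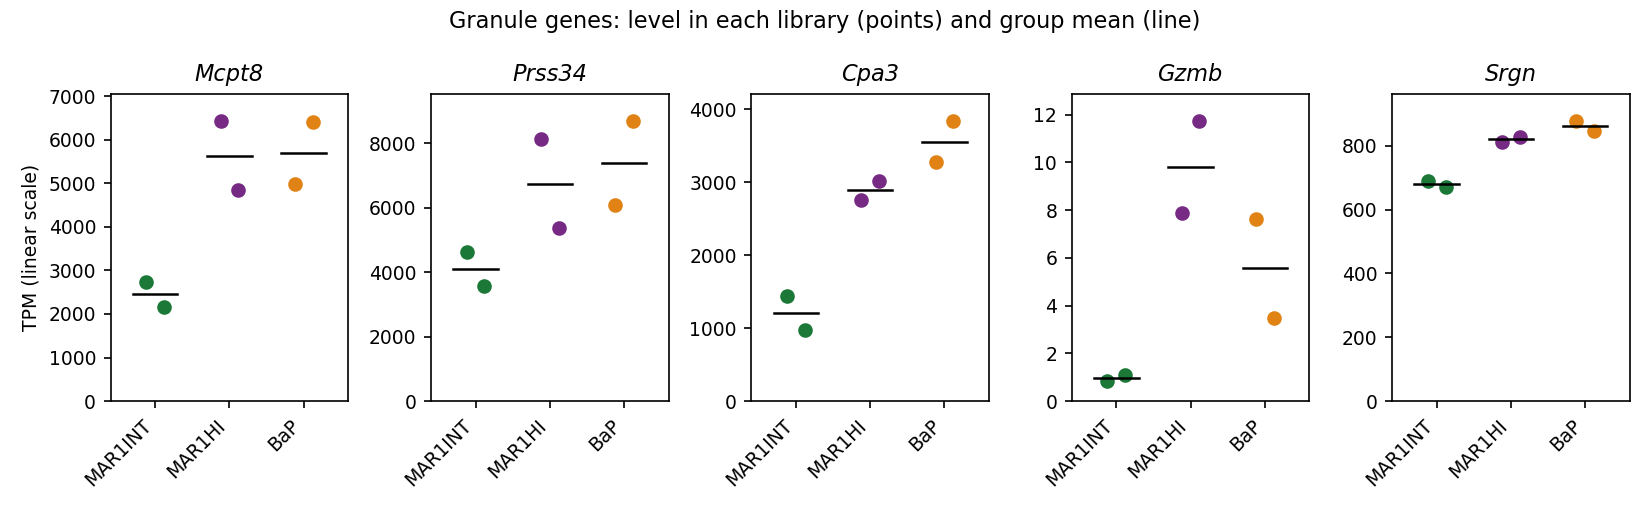
Level of each granule gene in TPM on a linear axis that starts at 0, one panel per gene, with a point per library and a line at the mean of the 2 libraries of a group. Both MAR1INT points lie below all MAR1HI and BaP points in each panel, from 0.830 and 1.08 TPM for Gzmb up to 4615 and 3588 TPM for Prss34.

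In the comparison of MAR1INT with MAR1HI, which differ by label only in MAR1 level, 3 of the 5 granule genes fell (Mcpt8, Cpa3 and Gzmb) and none rose. Over all 11337 genes tested, 14.5% fell and 2.29% rose (16.8% called). The median change of all tested genes was -0.36. Relative to that median, Mcpt8 changed by -0.84, Prss34 by -0.34, Cpa3 by -0.92, Gzmb by -2.09 and Srgn by 0.09. All 3 calls were lost without MAR1HI replicate 1 (limma adjusted p = 0.0889 for Mcpt8, 0.0668 for Cpa3 and 0.0662 for Gzmb) and without MAR1HI replicate 2 (0.0691, 0.0996 and 0.117 in the same order). They were also lost with no filter on low genes (0.0887, 0.0673 and 0.0776). Quantile normalization ended the call of Gzmb (-1.44, limma adjusted p = 0.0753), and the FPKM scale that of Mcpt8 (0.0506). Under median-of-ratios scaling, where the median of all genes was -0.11, Gzmb was called, but not Cpa3 (-0.98, limma adjusted p = 0.0733) or Mcpt8 (-0.90, limma adjusted p = 0.193).

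In the comparison of MAR1INT with BaP, 4 of the 5 fell (Mcpt8, Prss34, Cpa3 and Gzmb) and none rose, where 20.4% of all tested genes fell and 11.1% rose (31.5% called). The median of all tested genes was -0.16. Relative to it Mcpt8 changed by -1.05, Prss34 by -0.67, Cpa3 by -1.41, Gzmb by -1.51 and Srgn by -0.18. Cpa3 and Mcpt8 were called whichever 1 library was left out, with a limma adjusted p of at most 0.0147 for Cpa3 and 0.0407 for Mcpt8. Under median-of-ratios scaling Mcpt8 had a change of -1.22 and a limma adjusted p of 0.0674. Both comparisons use the same MAR1INT libraries. Markers of other cells moved with this comparison. Epx and Ear6, among the eosinophil markers that fell, passed the filter through BaP alone, which favoured their falls. Of 8 eosinophil markers tested (9 in the tables, none at 0 in all libraries), 5 fell and 2 rose, with a summed level of 213 to 349 TPM in MAR1INT, 109 to 158 TPM in MAR1HI and 1152 to 2166 TPM in BaP. Of 7 progenitor markers tested (9 in the tables, none at 0 in all libraries), 4 fell (Cd34, Kit, Ly6a and Myb) and 1 rose (Gata2). Their summed level was 634 to 717 TPM in MAR1INT, 498 to 571.5 TPM in MAR1HI and 556 to 617 TPM in BaP. In MAR1INT and MAR1HI most of that sum was Gata2, which is also among the basophil markers. Gata2 had 675 and 602 TPM in MAR1INT and 269.5 and 348 TPM in BaP. Cd34 and Kit encode proteins used in the gates. Kit had 0.0446 and 0.449 TPM in MAR1INT and 44.9 and 38.6 TPM in BaP, though BaP cells were sorted as lacking c-Kit. The part of the eosinophil and progenitor markers in the protease result was not tested.

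In the comparison of MAR1HI with BaP, 0 of the 5 granule genes passed limma's adjusted threshold, where 2.49% of all tested genes did (1.83% higher and 0.662% lower), and 17.5% had an unadjusted p under 0.05. None of the 5 had an unadjusted p under 0.05. The widest interval was that of Gzmb (0.77, 95% interval -0.30 to 1.84), the only one of the 5 whose mean was higher in MAR1HI.

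**Figure D2:**
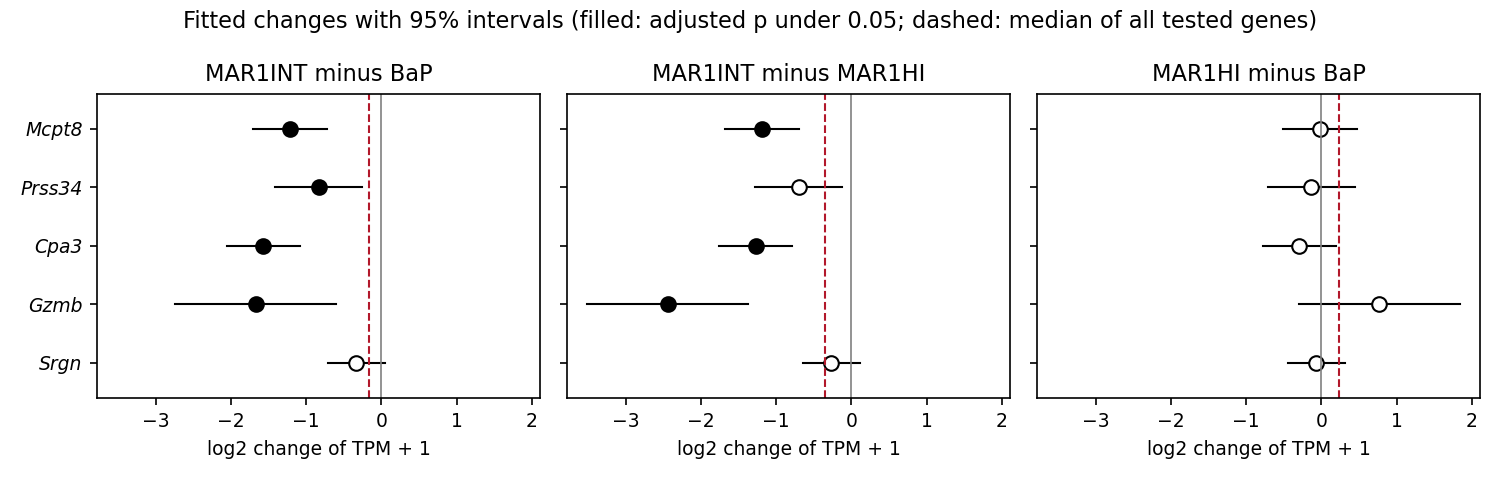
Fitted log2 change of TPM + 1 of each granule gene with its 95% interval in the 3 comparisons; filled points passed limma's adjusted p of 0.05, and the dashed line is the median of all tested genes. In MAR1INT minus BaP 4 points are filled, in MAR1INT minus MAR1HI 3, and in MAR1HI minus BaP 0.

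Together the 5 transcripts took 0.950% and 0.740% of all TPM in MAR1INT, 1.81% and 1.41% in MAR1HI and 1.52% and 1.98% in BaP. Their summed level was 8451 ± 1483 TPM in MAR1INT, 16097 ± 2871 TPM in MAR1HI and 17504 ± 3215 TPM in BaP (SD, n = 2 each), with both MAR1INT libraries below the other 4. With 2 libraries a group, the smallest p of an exact two-sided permutation test is 0.333, so these sums and the ratios that follow are descriptions.

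The make-up of the protease transcripts also differed between the groups. Prss34 took 52.4% and 53.3% of the summed TPM of the 4 proteases in MAR1INT, 46.96% and 40.6% in MAR1HI and 42.4% and 45.9% in BaP. Mcpt8 took 31.2% and 32.1% in MAR1INT, 37.1% and 36.6% in MAR1HI and 34.7% and 33.9% in BaP. MAR1INT was thus the highest of the groups in Prss34 share and the lowest in Mcpt8 share, with no overlap in either. The ratio of Prss34 to Mcpt8 was 1.68 and 1.66 in MAR1INT, 1.27 and 1.11 in MAR1HI and 1.22 and 1.35 in BaP. Cpa3's share was 16.4% and 14.6% in MAR1INT, 15.9% and 22.8% in MAR1HI and 22.9% and 20.3% in BaP, so that MAR1INT and MAR1HI overlapped. Per Srgn transcript, the 4 proteases had 12.8 and 10.02 transcripts in MAR1INT, 21.4 and 15.98 in MAR1HI and 16.4 and 22.3 in BaP.

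**Figure D3:**
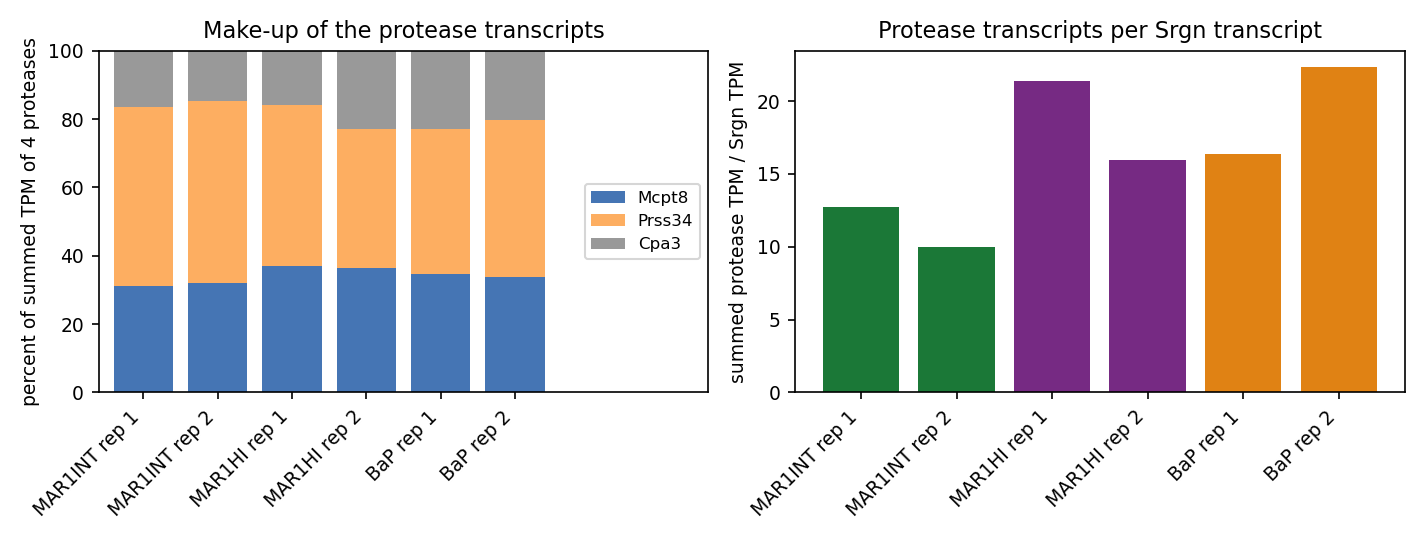
Left, the share of Mcpt8, Prss34 and Cpa3 in the summed TPM of the 4 proteases in each library (Gzmb, at most 0.0884%, is too small to be seen). Right, summed protease TPM divided by Srgn TPM in each library, which was 12.8 and 10.02 in MAR1INT, 21.4 and 15.98 in MAR1HI and 16.4 and 22.3 in BaP.

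Mcpt8 and Gzmb lie in 1 cluster of granule serine proteases on chromosome 14, with mast cell protease, cathepsin G and granzyme genes around and between them. Of these neighbours Ctsg, which encodes the neutrophil and mast cell protease cathepsin G, was the abundant one, with 105 and 96.5 TPM in MAR1INT, 925 and 937 TPM in MAR1HI and 1508 and 1475 TPM in BaP. Its groups were far apart. Ctsg fell in MAR1INT by -3.19 against MAR1HI (limma adjusted p = 3.36e-05) and by -3.87 against BaP (limma adjusted p = 4.58e-06), and both calls were made whichever 1 library was left out. Beside it, all 16 neutrophil granule markers, Ctsg among them, passed the filter. In MAR1INT 9 fell against BaP and 5 against MAR1HI, where 20.4% and 14.5% of all tested genes fell. The markers had a summed level of 3652 to 4209 TPM in MAR1INT, 4047 to 5225 TPM in MAR1HI and 6418 to 11793 TPM in BaP. Their part in the Ctsg result was not tested.

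The other genes between Mcpt8 and Gzmb were near or at 0. Gzmc, a granzyme known from cytotoxic lymphocytes, was listed at 0 in both MAR1INT libraries, at 0.890 and 2.72 TPM in MAR1HI and at 0 and 0.334 TPM in BaP. Gzmd, Gzme and Gzmf were listed at 0 in all 6 libraries, as were Mcpt1 and Mcpt9 on the other side of Mcpt8. Mcpt4, a chymase of connective tissue mast cells, was listed above 0 in BaP replicate 2 alone (0.216 TPM), and so was Mcpt2, a mucosal mast cell protease (1.88 TPM). These genes have close paralogs, so their low levels are uncertain.

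Prss34 has the tryptase-like genes Prss28 and Prss29 beside it on chromosome 17. Prss28 had 15.9 and 11.6 TPM in MAR1INT, 83.5 and 91.3 TPM in MAR1HI and 39.8 and 39.1 TPM in BaP. Both MAR1HI libraries were the highest and both MAR1INT libraries the lowest. Prss28 fell in MAR1INT by -2.60 against MAR1HI (limma adjusted p = 0.000518) and by -1.47 against BaP (limma adjusted p = 0.0044), the second call being lost without BaP replicate 1 (limma adjusted p = 0.0548). Prss29 did not exceed 1.02 TPM.

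Among the other genes of granule protease biology, few related proteases were present. Of 11 mast cell proteases, Prss28 and the tryptase gene Tpsb2 passed the filter, and Tpsb2 did not exceed 1.39 TPM. Of 11 mast cell markers, 2 passed; their summed level was 0.0446 to 0.449 TPM in MAR1INT, 4.18 to 5.46 TPM in MAR1HI and 43.99 to 46.4 TPM in BaP, nearly all Kit, with Tpsab1, Mcpt1 and Mrgprb1 at 0 in every library. None of 10 other granzymes and perforin passed the filter, with a sum of 0 TPM in MAR1INT, 3.97 and 4.66 TPM in MAR1HI and 1.09 and 1.29 TPM in BaP. Of 11 other carboxypeptidases, the 2 that passed both fell in MAR1INT against BaP, where 20.4% of all tested genes fell. Cpq, a secreted plasma carboxypeptidase, had 6.39 and 14.96 TPM in MAR1INT and 70.3 and 58.2 TPM in BaP (-2.58, limma adjusted p = 0.00195). Cpd, a carboxypeptidase of the secretory pathway, had 5.06 and 3.30 TPM in MAR1INT and 9.52 and 13.3 TPM in BaP (-1.26, limma adjusted p = 0.0461, lost without MAR1INT replicate 2, either BaP or either MAR1HI library, where it reached 0.294).

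Genes listed for granule protease maturation (cathepsins, Lgmn and Furin) went both ways, and whether each of them processes granule enzymes in these cells was not tested. Of 9 such genes tested, 2 rose and 4 fell in MAR1INT against BaP (median -1.12, against -0.16 for all tested genes). Of all tested genes 11.1% rose and 20.4% fell there. Against MAR1HI 1 rose and 1 fell, where 2.29% of all tested genes rose and 14.5% fell. In MAR1HI against BaP 1 rose, where 1.83% of all tested genes did. Furin, a proprotein convertase of the Golgi, had 129 and 127 TPM in MAR1INT, 71.8 and 90.9 TPM in MAR1HI and 28.3 and 34.3 TPM in BaP, and rose in MAR1INT against BaP by 2.004 (limma adjusted p = 0.0005). Ctsd, the aspartic protease cathepsin D and the most abundant gene of the list, also rose, with 981 and 842 TPM in MAR1INT, 450.1 and 626 TPM in MAR1HI and 282 and 316 TPM in BaP (1.60 against BaP, limma adjusted p = 0.00071; 0.78 against MAR1HI, limma adjusted p = 0.0373). The cysteine proteases Ctss, Ctsh, Lgmn and Ctsb fell in MAR1INT against BaP, and Ctsl, Ctsz and Ctsc did not pass. Ctsh had 2.79 and 13.4 TPM in MAR1INT and 82.0 and 73.3 TPM in BaP (-3.41, limma adjusted p = 0.0017; -2.45 without MAR1INT replicate 1 and -4.37 without MAR1INT replicate 2). Ctss, used by antigen-presenting cells, had 48.2 and 2.77 TPM in MAR1INT, duplicates far apart, and 183 and 116 TPM in BaP (-3.43, limma adjusted p = 0.02). Its change was -5.28 without MAR1INT replicate 1 and -1.57 without MAR1INT replicate 2, and the call was lost without either BaP or either MAR1HI library (limma adjusted p up to 0.15). Lgmn, an asparaginyl endopeptidase, had 2.89 and 0 TPM in MAR1INT and 16.6 and 6.32 TPM in BaP (-2.52, limma adjusted p = 0.0196). Its change was -3.50 without MAR1INT replicate 1 and -1.54 without MAR1INT replicate 2, and the call was lost without BaP replicate 1 or either MAR1HI library (limma adjusted p up to 0.157). Ctsc, dipeptidyl peptidase I, which removes the activation dipeptide of granule serine proteases, had 21.1 and 18.1 TPM in MAR1INT, 17.6 and 27.2 TPM in MAR1HI and 32.5 and 25.4 TPM in BaP, and no change passed; Ctsc was picked by role, and Ctsd, Ctsb, Ctsl and Ctsz after their values were seen, outside the rule for named genes. Macrophage and monocyte markers and dendritic cell markers moved with Ctss, Ctsh and Lgmn. Of them, 7 of 11 and 7 of 9 tested fell in MAR1INT against BaP, with none at 0 in all libraries. Cx3cr1, Spic and Clec9a, among those that fell, passed the filter through BaP alone, so their falls were favoured by that selection. Macrophage and monocyte markers summed to 364 to 404 TPM in MAR1INT, 333 to 371 TPM in MAR1HI and 541 to 570.0 TPM in BaP, and dendritic cell markers summed to 30.5 to 39.6 TPM in MAR1INT, 91.2 to 103 TPM in MAR1HI and 403.5 to 1026 TPM in BaP. Their part in the result for Ctss, Ctsh and Lgmn was not tested.

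Of 16 protease inhibitors, 12 passed the filter. Against MAR1HI, 6 fell in MAR1INT and 0 rose (median -0.88, against -0.36 for all tested genes), where 14.5% of all tested genes fell and 2.29% rose. Against BaP 4 fell and 1 rose, where 20.4% of all tested genes fell and 11.1% rose. Slpi, an inhibitor of neutrophil elastase and cathepsin G, had 79.6 and 36.3 TPM in MAR1INT, 131.0 and 151 TPM in MAR1HI and 48.9 and 57.0 TPM in BaP (MAR1INT minus MAR1HI -1.37, limma adjusted p = 0.0272, lost without any 1 library but MAR1INT replicate 1, up to 0.225). Lxn, latexin, the inhibitor of A-type carboxypeptidases such as Cpa3, had 12.1 and 12.4 TPM in MAR1INT, 32.0 and 51.6 TPM in MAR1HI and 22.4 and 14.4 TPM in BaP, and fell against MAR1HI (-1.65, limma adjusted p = 0.0169), a call lost without MAR1HI replicate 1 (0.058) or 2 (0.144). Serpina3g was listed at 0 in both MAR1INT libraries and at 12.9 and 12.2 TPM in BaP, and fell (limma adjusted p = 0.000266). Serpinb2 had 5.28 and 6.33 TPM in MAR1INT, was at 0 in each BaP library and rose (limma adjusted p = 0.00116). Serpina3g and Serpinb2 could pass the filter only through the groups where they were above 0. Their directions against BaP were thus favoured by that selection, and these p-values are no independent support. Serpins are families of similar genes, and how reads shared between copies were counted is not given in the sources used here.

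Enzymes that build glycosaminoglycan chains, which serglycin carries, were counted in the same way. Of 23 genes for chain synthesis and its precursors, 21 passed the filter. In MAR1INT 7 fell and 0 rose against BaP (median -0.75, against -0.16 for all tested genes), where 20.4% of all tested genes fell. Against MAR1HI 2 fell and 0 rose, a smaller share than the 14.5% of all tested genes. Papss2, which makes the sulfate donor PAPS, had 15.9 and 11.7 TPM in MAR1INT, 92.7 and 109 TPM in MAR1HI and 153 and 131 TPM in BaP. It fell by -2.80 against MAR1HI (limma adjusted p = 0.000316) and by -3.28 against BaP (limma adjusted p = 7.83e-05), both whichever library was left out. Slc35d1, a transporter of nucleotide sugars into the endoplasmic reticulum, had 9.04 and 13.1 TPM in MAR1INT and 29.5 and 33.7 TPM in BaP (-1.45, limma adjusted p = 0.0153, lost without BaP replicate 1, 0.103, or 2, 0.136). Extl2 and Pxylp1, which act on the phosphorylated linker between core protein and chain, were under 7 TPM throughout and fell against BaP. Extl2 changed by -1.84 (limma adjusted p = 0.0295, up to 0.172 and lost without MAR1INT replicate 1, either MAR1HI or either BaP library). Pxylp1 changed by -1.77 (limma adjusted p = 0.0196, up to 0.111 and lost without MAR1INT replicate 2 or either BaP library).

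Of 20 enzymes that sulfate or otherwise finish the chains, 13 were tested. In MAR1INT 1 rose and 2 fell against BaP, near the shares of all tested genes (11.1% and 20.4%), and 0 were called against MAR1HI by limma's adjusted p. Chst15, the sulfotransferase that makes the doubly sulfated chondroitin sulfate E, had 153 and 136 TPM in MAR1INT, 74.5 and 117 TPM in MAR1HI and 27.6 and 38.5 TPM in BaP. It rose in MAR1INT against BaP by 2.11 (limma adjusted p = 0.000828). The groups did not overlap, with the order opposite to that of Cpa3 and Srgn. The 2 that fell were Dse, an epimerase of dermatan sulfate, and Sulf2, a heparan sulfate sulfatase (limma adjusted p = 0.00946 and 0.0263). Both were listed at 0 in MAR1INT and stood at 1.28 to 2.43 TPM in BaP. They passed the filter through the BaP libraries alone, so a fall against BaP was favoured by that selection and these p-values are no independent support. The call of Sulf2 was lost without BaP replicate 2 or either MAR1INT library (up to 0.075).

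Other granule cargo and the machinery of granule release also held genes that rose. Of 16 tested genes, 6 rose and 2 fell in MAR1INT against BaP (median 0.11, against -0.16 for all tested genes), where 11.1% of all tested genes rose and 20.4% fell. Against MAR1HI 2 of the 16 rose and 1 fell, where 2.29% of all tested genes rose and 14.5% fell. Their summed level was 5749 and 6002 TPM in MAR1INT, 4555 and 4606 TPM in MAR1HI and 4060.0 and 4070.3 TPM in BaP. Hdc, histidine decarboxylase, which makes histamine, had 902 and 945 TPM in MAR1INT, 625 and 769 TPM in MAR1HI and 351 and 408 TPM in BaP, and rose in MAR1INT against BaP by 1.29 (limma adjusted p = 0.00119). Lyst, a regulator of lysosome and granule size, had 657.5 and 618 TPM in MAR1INT, 259 and 328 TPM in MAR1HI and 91.0 and 109 TPM in BaP, and rose by 2.67 (limma adjusted p = 7.04e-05). Unc13d, a factor for granule fusion, had 126 and 102 TPM in MAR1INT, 77.8 and 118 TPM in MAR1HI and 52.2 and 59.6 TPM in BaP. It rose by 1.01 against BaP (limma adjusted p = 0.0204, lost without MAR1INT replicate 1 or either BaP library, up to 0.144). Hpse, heparanase, was listed at 0 in both MAR1INT libraries and at 1.75 and 2.69 TPM in BaP (limma adjusted p = 0.0411, lost without BaP replicate 1, 0.0983, or 2, 0.171). Hpse passed the filter only through MAR1HI and BaP, so its fall was favoured by that selection. In MAR1HI against BaP, Furin, Chst15, Hdc, Lyst and Serpinb2 also rose. These 5 calls were lost without any 1 of the MAR1HI or BaP libraries, and the filter favoured the rise of Serpinb2. Of the 12 basophil markers, 8 rose and 1 fell (Fcer1a) in MAR1INT against BaP. Cd200r3 was among the 8. Its protein was used to sort MAR1INT and is not named in the BaP gate, so its rise is not independent of the sort.

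**Figure D4:**
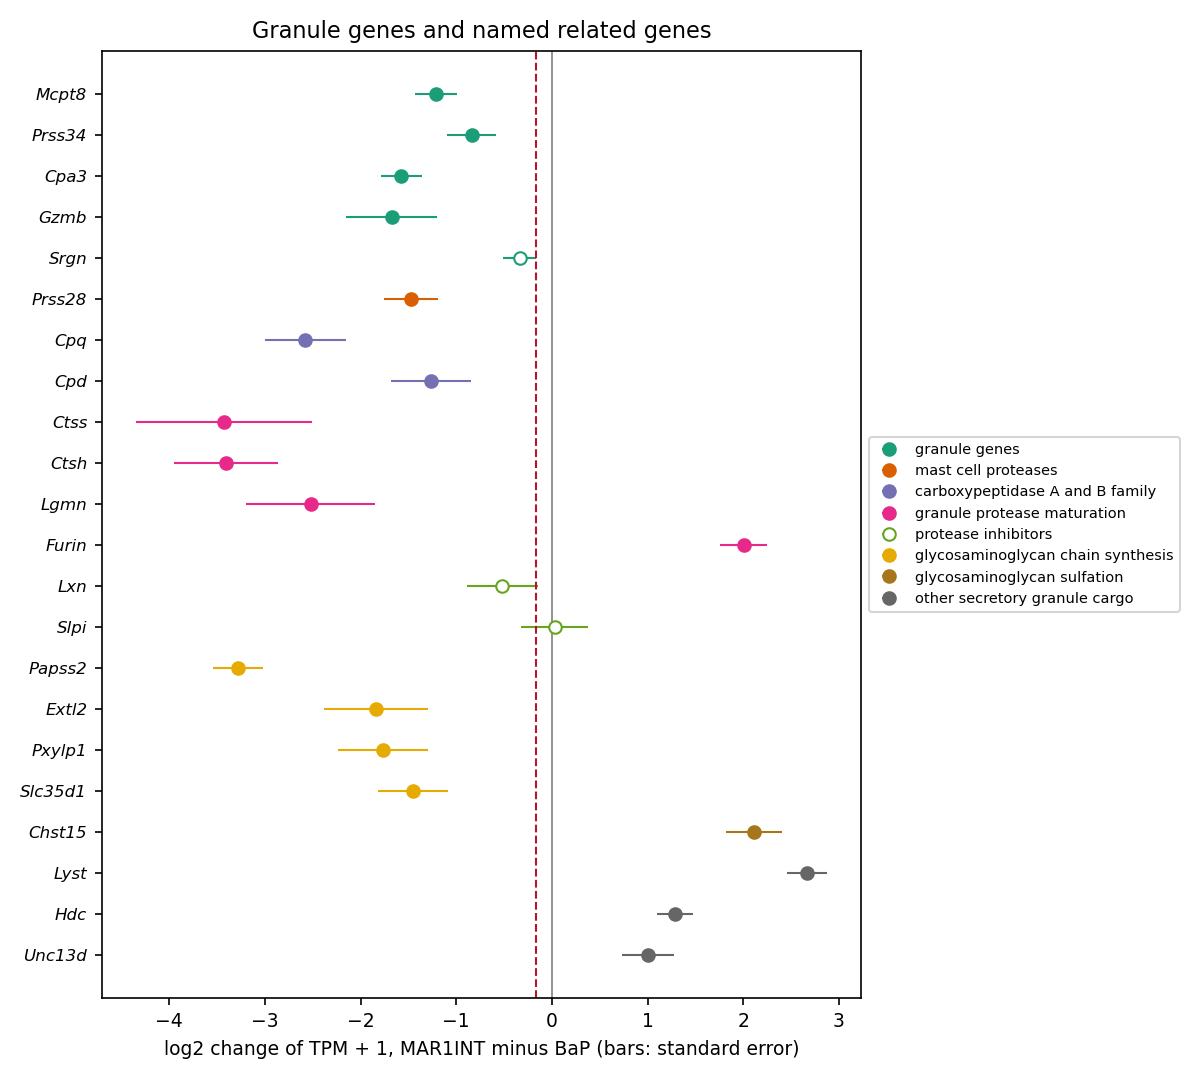
Log2 change of TPM + 1 in MAR1INT minus BaP for the granule genes and the named related genes, with bars of 1 standard error, a dashed line at the median of all tested genes and filled points for limma's adjusted p under 0.05; genes listed at 0 in a whole group are left out. Mcpt8, Prss34, Cpa3 and Gzmb lie left of 0, with Papss2 at -3.28, and Furin (2.004), Chst15 (2.11), Lyst (2.67), Hdc (1.29) and Unc13d (1.01) lie to the right.

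The 5 genes also differed in which other genes shared their pattern over the 6 libraries. Likeness was the root mean square difference of log2(TPM + 1), centred on each gene's mean, over 5348 tested genes with a mean of 20 TPM or more. The 5 genes nearest to Mcpt8 were all histone genes, H2bc12 (0.10), H2bc15 (0.11), H2ac15 (0.11), H2ac20 (0.12) and H3c11 (0.12). H2bc12 had 1285 and 948 TPM in MAR1INT, 2728 and 1873 TPM in MAR1HI and 2258 and 3091 TPM in BaP. The 5 nearest to Prss34 were histone genes as well, H2bc4 (0.07), H2bc7 (0.12), H4c14 (0.13), H4c8 (0.14) and H2bc13 (0.15). Histone genes have near-identical copies, so their single levels are uncertain, but as a class they took 8.08% and 7.66% of TPM in MAR1INT, 18.8% and 12.2% in MAR1HI and 15.2% and 17.5% in BaP. The library with the lower Mcpt8 and Prss34 level within each group was also the one with less histone transcript; the part of the histone share in the protease result was not tested.

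Cpa3 was nearest to Arsb, a lysosomal sulfatase that acts on chondroitin and dermatan sulfate (0.07; 68.0 and 40.1 TPM in MAR1INT, 121 and 141 TPM in MAR1HI, 142 and 167 TPM in BaP). It was followed by Trap1, Cmc1, Cdt1 and Gm12070 (0.11 to 0.13). Srgn was nearest to Get4, Ogdh, Psmd11, Hadhb and Ddx39b (0.05 to 0.07), genes that, like it, varied little. Gzmb had no close companion by this distance, its nearest being Snora69 at 0.26, followed by Dbi, Hsd17b12, Sgo2a and Kif20b (up to 0.30). Genes at the level of Gzmb itself were not compared, as a mean of 20 TPM or more was required. Pearson correlation of Gzmb with these 5 genes was 0.961 to 0.975 over the 6 libraries. This distance also counts differences in the size of a change. By it, the closest pairs of granule genes were Mcpt8 with Prss34 and Mcpt8 with Cpa3, and all other pairs were further apart. The direction of the 5 genes was more alike. Pearson correlation over the 6 libraries was 0.951 for Mcpt8 with Prss34 and with Cpa3, and 0.909 for Mcpt8 with Srgn. It was highest for Cpa3 with Srgn (0.971) and lowest for Prss34 with Gzmb (0.553). From Mcpt8, Prss34 was 36th, Cpa3 47th and Srgn 928th of 5348, at 0.22, 0.23 and 0.47. From Prss34, Mcpt8 was 20th at 0.22 and Cpa3 486th at 0.39. From Cpa3, Mcpt8 was 71st at 0.23. From Gzmb, Prss34 was 1598th at 0.90 and the nearest granule gene, Cpa3, 502nd at 0.67. On the FPKM scale and under median-of-ratios scaling, the same 5 genes were nearest to Mcpt8, to Prss34 and to Srgn. Of the 5 nearest to Cpa3, 5 were shared on the FPKM scale and 4 under median-of-ratios scaling. Of those nearest to Gzmb, 2 and 4 were shared, and on the FPKM scale AF357399 was nearest (0.20). Over 6 libraries in 3 groups such likeness is a description.

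**Figure D5:**
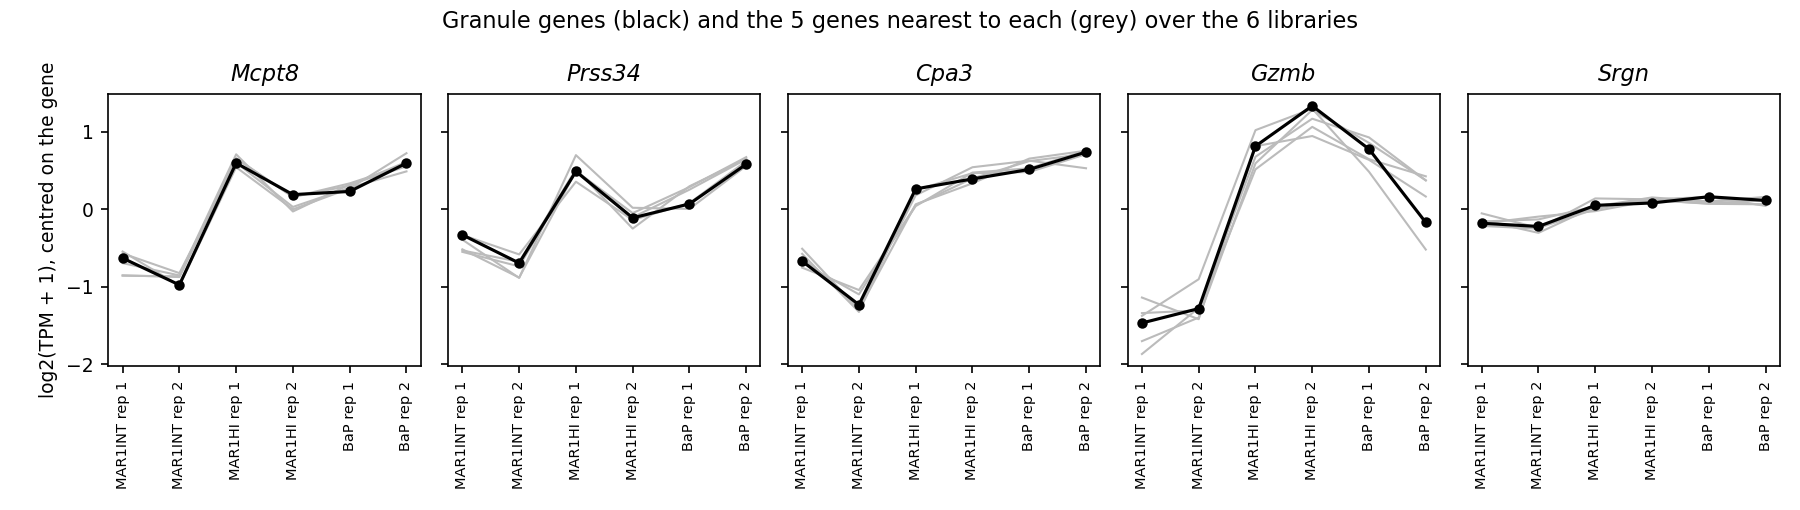
Log2(TPM + 1), centred on each gene's mean, in the 6 libraries for each granule gene (black) and the 5 genes nearest to it (grey); lines only join the values of 1 gene. The grey lines of Mcpt8 and Prss34 (all histone genes) dip in both MAR1INT libraries, those of Srgn stay near 0, and those of Gzmb spread the most, up to a root mean square difference of 0.30.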

How the data were processed

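RNA was measured in 6 libraries, 2 for each of MAR1INT, MAR1HI and BaP, grouped by their labels. Per the labels' protocols, TRIzol LS was used for total RNA and a capture kit (SureSelectXT RNA direct) for the libraries. Reads were processed with Trimmomatic, HISAT2 and StringTie on mm10, per the submitters' processing notes; versions, options and annotation release are not given in the sources used here. The tables deposited by the authors hold coverage (a signal, mean depth per base), FPKM and TPM for each gene, per the file headers. No read counts were used, so no counting interval is given, and precision was judged from the duplicates. Over the tested genes, the root mean square SD of log2(TPM + 1) within duplicates was 0.668 in MAR1INT, 0.427 in MAR1HI and 0.423 in BaP. The fit pools the spread of the 3 groups. A fit with only 1 MAR1INT library takes its spread from the other groups, so its p-values are less secure. Captured libraries can weight genes differently, which bears on levels compared between genes.

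Parts of a gene ID were summed. Symbols came from a GRCm38.p6 gene table (24462 of 24532 IDs matched; 24311 overlapped the table's interval). The 11337 genes that reached 1 TPM in 2 or more libraries entered limma 3.58.1 (R 4.3.3, eBayes with trend) as log2(TPM + 1), over all 6 libraries; degrees of freedom were 3 (residual) and 6.39 (prior, median). Changes on this scale understate those of low genes such as Gzmb. Some genes passed the filter through BaP alone, among them Dse, Sulf2 and the markers Epx, Ear6, Cx3cr1, Spic, Clec9a and Cd4. For these a fall against BaP was favoured by the selection. Serpina3g and Hpse, at 0 in MAR1INT, and Serpinb2, at 0 in BaP, passed through the other groups alone. This favoured their directions in the same way. Tables and figures were made with matplotlib 3.10.9, numpy 2.4.6, pandas 2.3.3 and Python 3.11.15. The fit was tested on simulated data in which each gene had the same spread in all groups and changes were set in MAR1HI alone. The wider spread of MAR1INT was therefore not covered. Replicate numbers did not pair the libraries (see the correlations given with the alternatives).

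Alternatives were a pseudocount of 0.1, no filter, a mean TPM of 5, FPKM, median-of-ratios scaling, quantile normalization, only the groups compared, a replicate block and leaving out each library. The genes and lists were chosen with earlier results of these data known. Genes named from a related list were its members called in any comparison, up to the 4 largest changes, or otherwise the most abundant member. Nkg7, Kit, Fcer1a, Ctsc and other single markers were named besides. Ctsd, Ctsb, Ctsl and Ctsz were named after their values were seen. Motifs were searched with exact letters.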

Additional observations from a re-analysis of the deposited data

How the results depend on the processing

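Without the filter, 4 genes were called in MAR1HI minus BaP, 562 in MAR1INT minus MAR1HI and 2358 in MAR1INT minus BaP (282, 1900 and 3574 as reported), with 0 and 2 granule genes in the comparisons of MAR1INT with MAR1HI and with BaP, and 0, 5 and 21 related genes (5, 15 and 32 as reported). In MAR1HI minus BaP, a pseudocount of 0.1 gave 89 genes and 2 related ones, and fitting only the groups compared gave 1062 and 15. That fit gave 2 granule genes in MAR1INT minus BaP and 9 related genes in MAR1INT minus MAR1HI. Median-of-ratios scaling gave 1 granule gene against MAR1HI and 2 against BaP. The summed granule level in FPKM was 4288 in MAR1INT, 8427 in MAR1HI and 10521 in BaP, which is another unit. Under median-of-ratios scaling the sum was 9559 and 8062 in MAR1INT, 18203 and 10218 in MAR1HI and 16125 and 20711 in BaP. MAR1HI replicate 2 then lay only a little above MAR1INT replicate 1. Leaving out 1 library at a time (a lone library is then assumed to vary like the other groups) gave 3 to 1092, 239 to 2611 and 1581 to 4024 genes, 0 to 4 granule genes against MAR1HI and 2 to 4 against BaP, 0 to 15, 2 to 18 and 12 to 32 related genes, and summed levels of 7403 to 9499 TPM in MAR1INT, 14067 to 18127 TPM in MAR1HI and 15230.4 to 19777 TPM in BaP. In MAR1HI minus BaP the sign turned under quantile normalization for Mcpt8 (0.23), Prss34 (0.085) and Cpa3 (0.001), without BaP replicate 2 for Mcpt8 (0.16) and Prss34 (0.12), and without MAR1HI replicate 2 for both (0.18 and 0.16); Srgn turned in MAR1INT minus MAR1HI under median-of-ratios scaling (0.027). Over the left-out libraries the change of Mcpt8 ranged from -0.223 to 0.183 and that of Prss34 from -0.436 to 0.162. The cause was not tested. Same-numbered libraries deviated with correlations of 0.15 (MAR1HI and BaP), -0.09 (MAR1INT and BaP) and -0.06 (MAR1INT and MAR1HI), so they share only a number; with a replicate block, 3 and 4 granule genes were called against MAR1HI and BaP, as without it. Of 210 values of granule genes under alternatives, 169 kept their direction and side of the threshold, 29 lost and 4 gained the call, and 8 turned sign. Of 482 values of the other named genes in comparisons where they were called, 119 lost the call and 0 turned.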
